A study of Oryza sativa with 6 samples.

Results

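WRKY transcription factors were examined in the stem base of rice seedlings, the region in which crown root primordia form. The annotation names 6 rice genes as WRKY plus a number, either as symbol or as synonym with the Os prefix dropped, and each has at least 1 probe set that pairs with that gene alone, 7 probe sets in all. The 4 genes with a probe set at a geometric mean signal of at least 20 were kept (*WRKY9*, *WRKY51*, *WRKY71* and *WRKY76*), out of 15040 genes with a probe set at that level. The rule allows up to 10 genes, so none was left out for a lower rank. *WRKY62* and *WRKY24* lay below the minimum. The names are those of the annotation used here, and genes of this family that it lists under a locus number only are not counted.

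Total RNA came from stem bases of 7-day-old seedlings of the cultivar Taichung 65, grown under sterile conditions at 26 °C with 12 h of light a day. The 2 groups were wild type (WT) and the mutant *crown rootless1* (*crl1*), which lacks crown roots and in which the LOB-domain transcription factor CRL1 is affected, and neither was treated. Each had 3 biological replicates of pooled stem bases, hybridised to 1 GeneChip Rice Genome Array each, 6 arrays in all. The mutant is a single line, and a change in the share of cell types and a change of RNA per cell cannot be told apart in these bulk samples.

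WRKY proteins are plant transcription factors with a zinc finger and a conserved WRKY motif, and they bind the W-box of promoters, an element with the core TTGAC. Many of them are switched on by pathogens or wounding and raise or repress defence genes within salicylic acid and jasmonate signalling. In rice, WRKY62 and WRKY76 are known as repressors of defence against blast and bacterial blight, and WRKY62 binds the intracellular part of the receptor kinase XA21. WRKY51, WRKY71 and WRKY24 are known from the aleurone of rice grains, where they repress genes that gibberellin switches on. WRKY71 also takes part in defence.

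Some facts of the arrays bear on all values. The median signal was 15.2 to 16.6 in replicates 1 and 2 and 12.5 to 12.7 in replicate 3, and the highest signal was 15946 to 18869 against 5201 to 5761, so that replicate 3 of both genotypes stood apart. The KNOX gene *OSH1*, a marker of the shoot meristem, had signals between 633 and 1223. *WOX11*, a gene of crown root primordia, had 97.4, 80.6 and 98.2 in WT and 198.0, 114 and 151 in *crl1*, higher in the mutant in every pair, without passing the test (0.71 on the log2 scale, adjusted p = 0.0867 in limma). The root gene *PIN2* had 27.3, 42.4 and 36.0 in WT and 16.4, 30.7 and 19.5 in *crl1*, lower in every pair (-0.70, limma adjusted p = 0.437). *Lsi1*, also of the root, had 971, 1021 and 689 in WT and 949, 657 and 756 in *crl1* (-0.18, limma adjusted p = 0.746). Neither passed. *CAB2R*, of the light-harvesting antenna, lay between 3934 and 9305, lowest in replicate 3 of both genotypes. Of the endosperm storage genes, *GLB1* had up to 570, *GLUA-2* up to 80.0 by 1 probe set and 21.8 by another, and *GLUB-4* up to 26.6, while *GLUA-1* stayed at or below 6.61. Signals of different probe sets are not on a common scale, so the genes are compared here across arrays and not with each other. *CRL1* itself was not analysed here.

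*WRKY9* (LOC4343736, chromosome 7, probe set Os.18862.1.S1_at) was the steadiest of the 4. Replicates 1, 2 and 3 of WT gave signals of 400, 367 and 354, and those of *crl1* gave 371, 305 and 345. The lowest array was *crl1* replicate 2 and the highest WT replicate 1, only 1.31-fold apart, and the genotypes overlapped. Its standard deviation on the log2 scale over the 6 arrays was 0.13, where the median probe set tested had 0.27, and 11.04% of the tested probe sets varied less.

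*WRKY51* (gene 4335388, chromosome 4, Os.49656.1.S1_at) varied more. Its signal was 131, 143 and 232 in WT, against 236, 128 and 272 in *crl1*, in the order of the replicates. Replicate 3 was the highest array of each genotype, but *crl1* replicate 1 stood as high as WT replicate 3, and the lowest array was *crl1* replicate 2. The log2 standard deviation was 0.49, and 84.7% of the tested probe sets varied less.

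*WRKY71* (LOC4328512, chromosome 2) is read by a pair of probe sets. The brighter one, Os.12032.1.S1_at, which stands for the gene here, gave 77.4, 53.9 and 71.9 in WT and 69.5, 48.0 and 129 in *crl1*. The *crl1* replicate 3 array was 1.67-fold above the next highest, replicate 2 was the lowest array of each genotype, and the other values of the genotypes overlapped. The dimmer probe set, OsAffx.24166.1.S1_at, had a geometric mean of 15.0 and gave 15.1, 22.1 and 6.84 in WT and 19.5, 22.8 and 11.1 in *crl1*. It ordered the arrays differently, with replicate 2 highest and replicate 3 lowest in both genotypes (Pearson correlation of the log2 signals of the 2 probe sets -0.57 over 6 arrays). Most signals of the dimmer probe set lay below 20, and what either probe set says of *WRKY71* is limited by this disagreement.

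*WRKY76* (LOC4347069, chromosome 9, Os.25606.1.S1_at) rested on 1 array. Its signal was 15.95, 27.5 and 11.6 in WT, against 11.6, 128 and 19.0 in *crl1*. The *crl1* replicate 2 array was 4.64-fold above the next highest, which was WT replicate 2, and only these 2 arrays of the 6 reached 20. Without that array the geometric mean would have been 16.2, below the minimum, so the gene was kept through it. The log2 standard deviation was 1.30, larger than in 99.4% of the tested probe sets.

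The probe sets just outside the minimum were weak in nearly all arrays. *WRKY62* (LOC4347070, Os.48082.1.S1_at), which lies next to *WRKY76* on chromosome 9 with no annotated gene between them, had a geometric mean of 9.47, against 22.9 for *WRKY76*. Its signal was 8.86, 18.1 and 8.49 in WT, against 5.05, 21.7 and 4.84 in *crl1*. As for *WRKY76*, replicate 2 was the highest of each genotype and *crl1* replicate 2 the highest of all. *WRKY24* (LOC4327518, chromosome 1, Os.31521.1.S1_at) had 2.23, 2.1 and 2.31 in WT and 2.37, 17.2 and 3.61 in *crl1*, a geometric mean of 3.42, and again *crl1* replicate 2 was highest, by 4.75-fold. Ratios between signals this low are not read further.

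**Figure D1:**
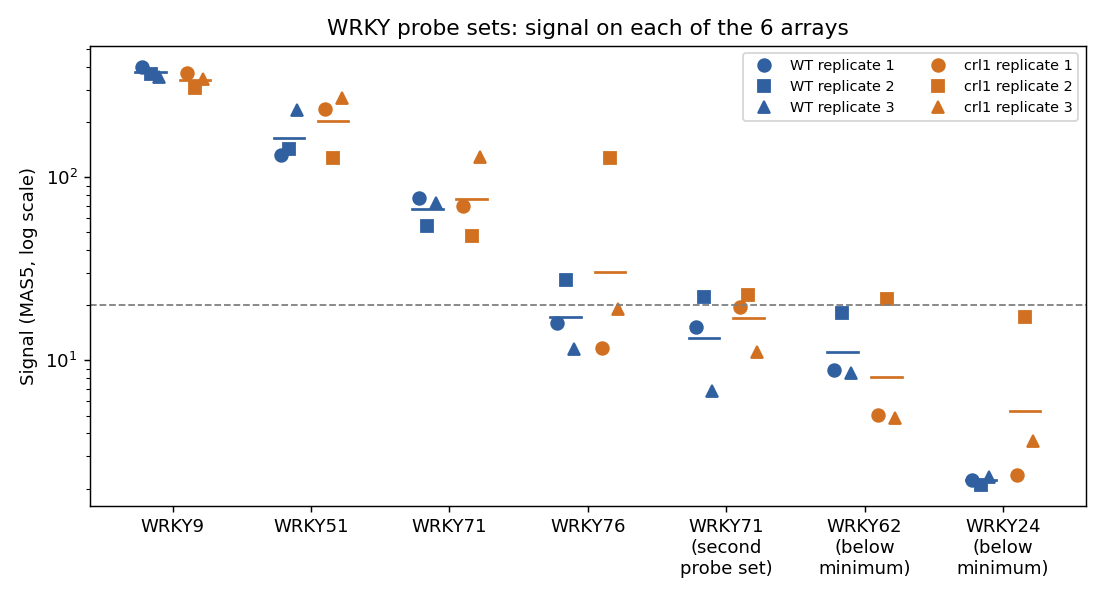
The signal of the 7 WRKY probe sets (log axis) on each array, WT in blue and *crl1* in orange, with circles, squares and triangles for replicates 1, 2 and 3, a line at the geometric mean of each genotype and a dashed line at the minimum of 20. *WRKY9* was nearly level at 305 to 400, replicate 3 was highest in each genotype for *WRKY51*, and the square of *crl1* replicate 2 stood alone at 128 for *WRKY76*.

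The first comparison asked whether the mutation of *CRL1* changed these genes in the stem base. None of the 4 WRKY genes passed the test between *crl1* and WT, at a limma adjusted p under 0.05 with the replicate pairs as a block, and 0 of the 4 had an unadjusted p under 0.05, which 9.76% of the tested probe sets had. Over all tested probe sets 0.651% passed, 51 higher and 112 lower in *crl1* of 25045, so that 0 of 4 does not set the WRKY genes apart from the rest (1 higher and 4 lower without the replicate block). The median log2 fold change of the 4 was 0.24, against 0.00344 over all tested probe sets, and 3 were above and 1 below 0. Of all tested probe sets, 49.3% were below 0. Nothing is read from the median or the count. *WRKY76* was kept only through its high signal in *crl1* replicate 2, and *WRKY71* turned below 0 without replicate 3.

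*WRKY9* averaged 374 ± 23.7 in WT and 340 ± 32.8 in *crl1* (SD over 3 arrays, as for the genes that follow). It was lower in *crl1* in all 3 replicate pairs, where *crl1* reached 0.926, 0.833 and 0.973 of the WT signal, and it was the only member with 1 direction in all pairs, as 31.2% of the tested probe sets had. The fitted difference on the log2 scale was -0.14 ± 0.10 (SE), with a 95% interval of -0.36 to 0.09 and an adjusted p of 0.729 in limma. In folds that interval runs from 0.777 to 1.06, so a 2-fold difference in either direction lies outside it.

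*WRKY51* stood at 169 ± 55.0 in WT and 212 ± 75.2 in *crl1*. The ratio was 1.79 in pair 1, 0.892 in pair 2 and 1.17 in pair 3, higher in 2 of the 3. The fitted difference on the log2 scale was 0.30 ± 0.18 (SE), with a 95% interval of -0.10 to 0.70 and an adjusted p of 0.646 in limma. It rested on pair 1, being 0.03 without replicate 1 and 0.54 without replicate 2.

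*WRKY71* stood at 67.7 ± 12.3 in WT and 82.3 ± 42.2 in *crl1*, the larger spread in *crl1* coming from replicate 3. The ratios were 0.898, 0.890 and 1.80 in pairs 1, 2 and 3, so that only pair 3 was higher in *crl1*. The fitted difference on the log2 scale was 0.18 ± 0.23 (SE), with a 95% interval of -0.33 to 0.68 and an adjusted p of 0.870 in limma, and it turned to -0.16 without replicate 3. The dimmer probe set was higher in *crl1* in all 3 pairs, with a fitted log2 difference of 0.37 ± 0.47 (SE, adjusted p = 0.919 in limma without a signal minimum).

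*WRKY76* stood at 18.3 ± 8.23 in WT and 52.7 ± 64.9 in *crl1*, a standard deviation above the mean. The ratios were 0.728, 4.64 and 1.64 in pairs 1, 2 and 3. The fitted difference on the log2 scale was 0.82 ± 0.46 (SE), with a 95% interval of -0.21 to 1.86 and an adjusted p of 0.630 in limma, and it was 0.13 without replicate 2 and 1.46 without replicate 1 (limma adjusted p = 0.947 and 0.0876). The 3 pair ratios spread more (standard deviation 1.34 on the log2 scale) than in 99.4% of the tested probe sets, where the median was 0.23. Neither *WRKY62* (log2 fold change -0.45, standard error 0.65) nor *WRKY24* (1.25, standard error 1.08) passed in the fit without a signal minimum (limma adjusted p = 0.933 and 0.870). Without replicate 3, the array pair with the lower highest signals, the log2 differences were -0.19 for *WRKY9*, 0.34 for *WRKY51* and 0.88 for *WRKY76*, each with the sign it had over all pairs.

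**Figure D2:**
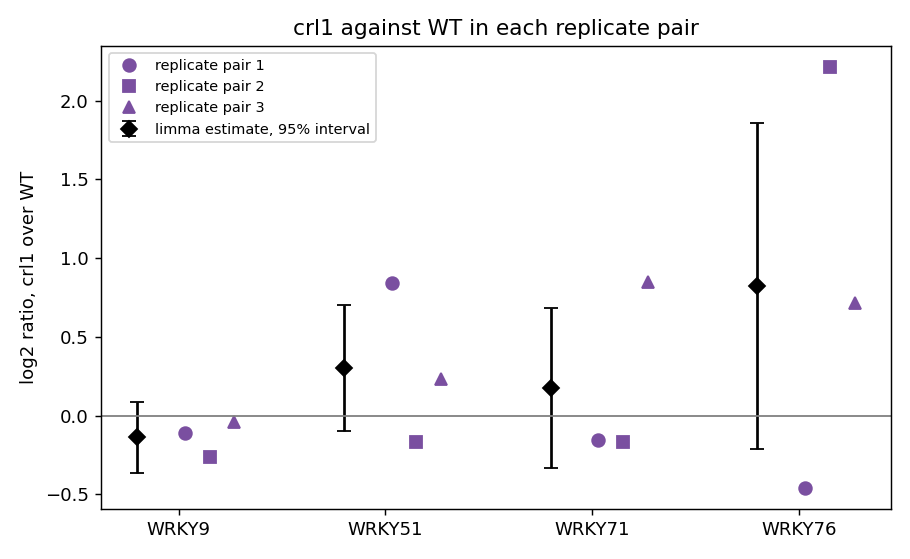
The log2 ratio of *crl1* over WT for the 4 WRKY genes, as the limma estimate with its 95% interval (black) and in each replicate pair (purple, circles, squares and triangles for pairs 1, 2 and 3). All intervals include 0, the *WRKY9* pairs lie close together below it, and 1 pair each of *WRKY51* (pair 1, a ratio of 1.79), *WRKY71* (pair 3, 1.80) and *WRKY76* (pair 2, 4.64) lies above the interval of its estimate.

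The second comparison set replicate 3 against replicates 1 and 2 in each genotype. Replicate 3 is 1 experiment of each genotype, so no p-value is given. A probe set was called when replicate 3 differed by at least 2-fold in the same direction in WT and in *crl1*, with both replicate 3 arrays outside the range of the other 4. None of the 4 WRKY genes was called, and none had its replicate 3 arrays outside that range. By this rule 3.72% of the tested probe sets were called, 598 higher and 333 lower in replicate 3. Of 7 clock genes, 6 were called, among them *GI*, an evening gene of the clock, with log2 differences of -3.34 in WT and -3.36 in *crl1*. What part the shift of the clock genes or the lower highest signals of replicate 3 had in the WRKY values was not tested.

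*WRKY51* was 1.69-fold higher in replicate 3 in WT and 1.57-fold in *crl1* (log2 differences 0.76 and 0.65). It missed the rule by its fold and because *crl1* replicate 1, at 236, lay above WT replicate 3, at 232. *WRKY71* differed between the genotypes in size, with log2 differences of 0.15 in WT and 1.16 in *crl1*, and the difference between them was not tested. Its dimmer probe set went the other way, at -1.42 and -0.92, with both replicate 3 arrays below the other 4.

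*WRKY9* had log2 differences of -0.11 in WT and 0.03 in *crl1*. *WRKY76* had -0.86 and -1.02, lower in replicate 3, but WT replicate 3 and *crl1* replicate 1 had nearly the same signal. Without replicate 2 its mean difference over the genotypes turned from -0.94 to 0.12, so that it described replicate 2 as much as replicate 3. Over the 4 genes the median was 0.02 in WT and 0.34 in *crl1*, where all tested probe sets had medians of -0.02 and -0.04. In 3 of the 4 the 2 genotypes had the same sign, as did 77.4% of the tested probe sets.

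**Figure D3:**
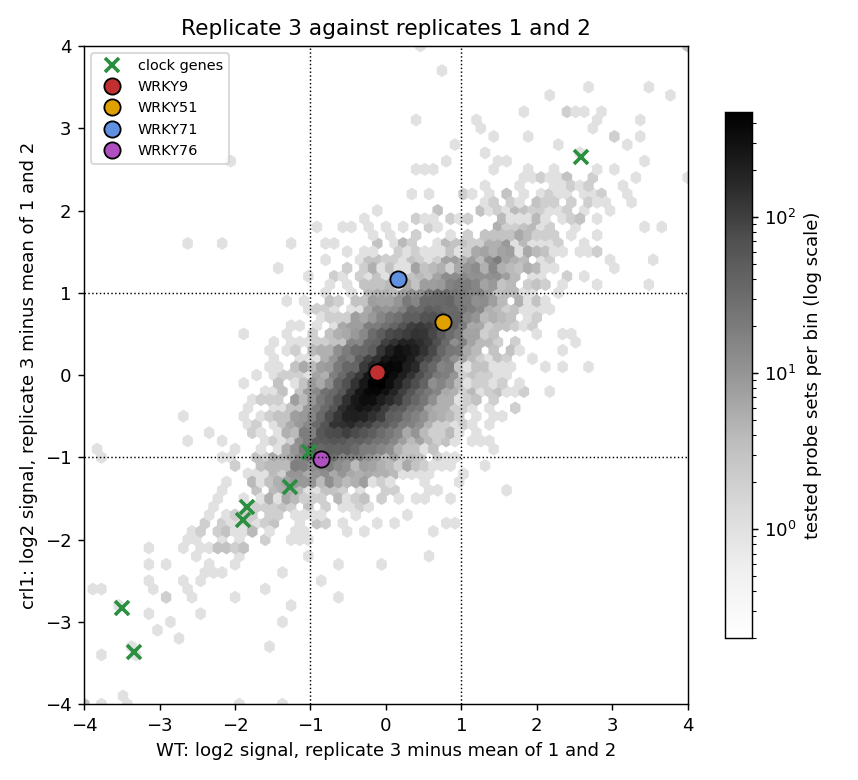
The log2 difference of replicate 3 from the mean of replicates 1 and 2, in WT (horizontal axis) and *crl1* (vertical axis), with all tested probe sets as grey bins shaded on a log scale (those beyond the axes drawn at their edge), clock genes as green crosses, the 4 WRKY genes as circles and dotted lines at 2-fold. No WRKY gene passes 2-fold in both genotypes, *WRKY71* lies above it in *crl1* alone at 1.16, *WRKY76* lies below it in *crl1* alone at -1.02, and *WRKY9* lies near the centre.

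*crl1* replicate 2 was the highest or the lowest array for each of the 6 genes, by the brightest probe set, a pattern looked at after the values were seen. *WRKY76*, *WRKY62* and *WRKY24*, 3 of the 6 genes with a probe set, were highest there, as were 22.8% of all probe sets. *WRKY9*, *WRKY51* and *WRKY71* were lowest there, 3 of the 4 above the minimum, as were 18.5% of the tested probe sets. Only *WRKY76* of the 4 lay at least 2-fold above every other array in *crl1* replicate 2, and 25 tested probe sets, 0.0998%, did. Nothing is read from that share, because *WRKY76* passed the signal minimum only through this array. Replicate 2 was the highest of both genotypes for *WRKY76* and *WRKY62*, 2 of the 6 genes, and for 16.6% of all probe sets.

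Genes of pathways in which WRKY factors take part were read from lists matched on gene names. Of 7 chitinase genes, whose enzymes cut the chitin of fungal walls, 2 fell in *crl1* and none rose, where 0.651% of all tested probe sets were called (6 had an unadjusted p under 0.05 in limma, beside 9.76% of all tested, the median log2 difference was -0.78, and 5 lay below and 2 above 0). The count stayed at 2 with each replicate left out, and it was 0 without the replicate block (smallest limma adjusted p = 0.598) and 0 without the trend (0.227). *Cht1* of chromosome 5 averaged 448 ± 58.3 in WT, where the arrays gave 399, 513 and 433, and 194 ± 58.5 in *crl1*, where they gave 231, 226 and 127 (-1.25 ± 0.17 on the log2 scale as estimate ± SE, adjusted p = 0.0148 in limma). *Cht11*, the other one, had 128, 116 and 82.3 in WT and 55.0, 45.8 and 20.6 in *crl1*, with no overlap of the genotypes (fitted log2 difference -1.52 ± 0.21 as estimate ± SE, adjusted p = 0.0166 in limma). A different gene named *Cht1* on chromosome 6 had 906, 858 and 1690 in WT and 2104, 940 and 2068 in *crl1*, and *Cht3* beside it on the list had 143, 185 and 429 in WT and 437, 237 and 602 in *crl1*. These 2 did not pass (log2 fold changes 0.55 and 0.82, limma adjusted p = 0.324 and 0.175). As for *WRKY51*, replicate 3 was high in WT, and replicates 1 and 3 were high in *crl1*, with replicate 2 low. The probe set of *Cht3* is of a kind that may cross-hybridise. Whether it also reads the *Cht1* of chromosome 6 was not tested.

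None of 7 salicylic acid genes passed in limma (none had an unadjusted p under 0.05, and the median log2 difference was 0.05). Without replicate 1, 1 of them was called lower in *crl1* (*PAL06*, a phenylalanine ammonia-lyase, limma adjusted p = 0.0278). *NH1*, the rice NPR1 and a coactivator of the salicylic acid response, had 73.0, 66.0 and 57.2 in WT and 70.9, 88.6 and 43.6 in *crl1*, with overlap of the genotypes. With all replicates *PAL06* had a fitted log2 difference of -0.31 ± 0.16 (SE, adjusted p = 0.593 in limma).

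Of 29 genes of the jasmonate list none passed, and 3 had an unadjusted p under 0.05 in limma, beside 9.76% of all tested probe sets. The list was matched on names and takes in *TIFY1a*, *TIFY2a* and *TIFY2b*, listed also as *GATA18*, *GATA17* and *GATA20*. Its counts are not read as those of jasmonate genes alone. The difference was above 0 for 21 and below it for 8, with a median of 0.11 on the log2 scale. Over all tested probe sets 49.3% lay below 0, and the median was 0.00344. Whether the list as a whole differed was not tested. *AOS4*, of the allene oxide synthases of jasmonate synthesis, came nearest at 0.55 (standard error 0.11, limma adjusted p = 0.0685). Its signal was 136, 280 and 143 in WT, against 199, 396 and 218 in *crl1*, highest in replicate 2 of each genotype, as *WRKY76* was. The repressor gene *JAZ7* had 2657, 2904 and 1447 in WT and 2942, 3315 and 1609 in *crl1*, lowest in replicate 3.

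Of 16 MAP kinase genes, whose cascades phosphorylate WRKY proteins in defence, none was called between *crl1* and WT. An unadjusted p under 0.05 in limma was found for 1, beside 9.76% of all tested probe sets (median log2 difference -0.00583). *MAPK6* was level at 724 to 760 over the 6 arrays. *MPK2* was called higher in replicate 3, with 33.6, 27.4 and 83.8 in WT and 50.5, 31.6 and 124 in *crl1*. It was 1 of the 16, beside 3.72% of all tested probe sets, and the list is not set apart by it.

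None of 7 tested genes of the diterpenoid list passed in limma, while 4 had an unadjusted p under 0.05, beside 9.76% of all tested probe sets. The median log2 difference was 0.49, with 5 above and 2 below 0. The list was matched on names and not sorted by pathway, and it takes in *CPS1*, which serves gibberellin synthesis. Its brightest gene, *CYP701A19*, listed also as *D35* and *OsKO2*, gave the median value of 0.49 (unadjusted p = 0.00356 in limma). The counts are therefore not read as those of phytoalexin genes alone. The probe set of *CYP701A19* is of a kind that may cross-hybridise, and 4 of the 7 genes remained with such probe sets left out. *CYP99A2*, a P450 of momilactone synthesis, had 6.29, 10.9 and 42.4 in WT and 37.7, 58.2 and 64.8 in *crl1*, higher in *crl1* in every pair, with a fitted log2 difference of 1.87 ± 0.39 (SE, adjusted p = 0.0838 in limma), and WT replicate 3 overlapped with *crl1*. The signals of WT replicates 1 and 2 lay below the minimum of 20, so the probe set reached it through the other arrays. The size of this difference rests on weak WT signals and is not read further. The list of pathogenesis-related names matched 13 genes, but 11 of these are tubby-like proteins that share the letters TLP, and it is not read as a group. *PBZ1*, a marker of the defence response in rice, had 836, 998 and 1093 in WT and 2711, 834 and 1100 in *crl1* (0.48 ± 0.30 on the log2 scale as estimate ± SE, adjusted p = 0.664 in limma), high in *crl1* replicate 1 alone. No gene matched the list of VQ proteins, which bind WRKY factors.

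NAC factors, another plant family with roles in stress, were taken for comparison. None of 5 passed in limma (none had an unadjusted p under 0.05, and the median log2 difference was 0.03), and none was called in replicate 3. *NAC048*, a stress-induced member, had 293, 232 and 450.1 in WT and 357, 230 and 517 in *crl1*, with replicate 3 the highest array of each genotype, as for *WRKY51*. The difference between the families was not tested.

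**Figure D4:**
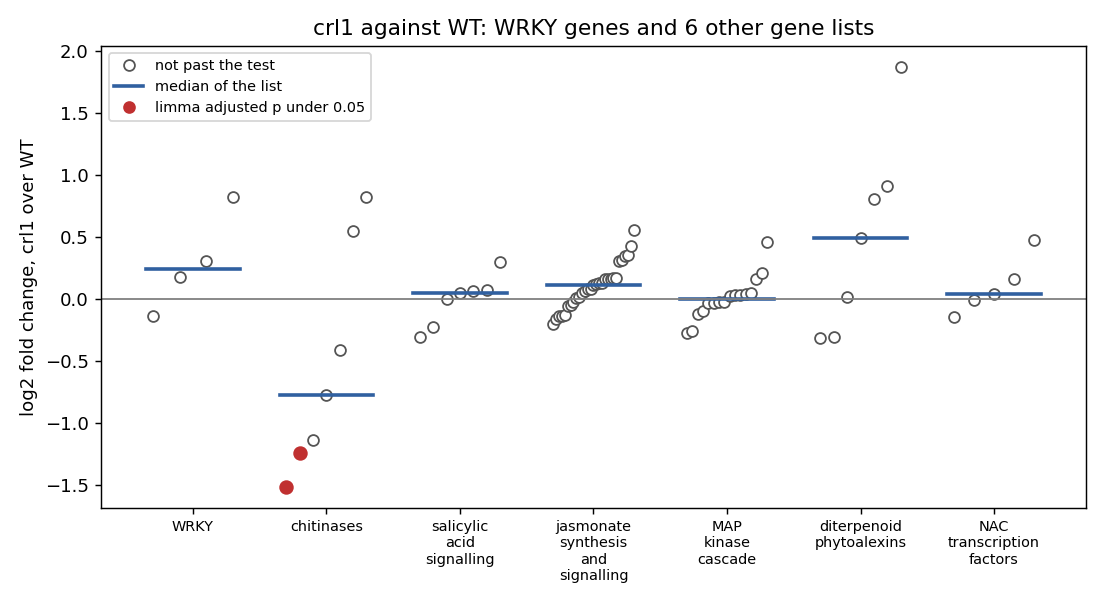
The log2 fold change of *crl1* over WT for each tested gene of 7 lists, red where the limma adjusted p was under 0.05 and open otherwise, with a blue line at the median of each list. The 2 red points are chitinase genes, the WRKY median lies at 0.24 and that of the chitinases at -0.78.

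Likeness of the log2 signal was looked up among 74 tested genes whose table symbol is a name rather than a locus number. Most like *WRKY9*, the brightest of the 4, was *CPK7*, a calcium-dependent protein kinase (Pearson correlation 0.92). *NSHB1*, a plant haemoglobin (0.89), and *RLK10*, a receptor-like kinase by its name (0.63), followed. These correlations are over 6 arrays that share growth, labelling and scaling and describe likeness only. Among the WRKY genes themselves, *WRKY51* and the brighter probe set of *WRKY71* were the most alike (0.71), and *WRKY9* and *WRKY76* the least (-0.78). The dimmer probe set of *WRKY71* had replicate 3 lowest in both genotypes, where *WRKY51* had it highest. The value of 0.71 is therefore not read as a likeness of the genes. Nothing is read from the value of -0.78. *crl1* replicate 2 was the lowest array of *WRKY9* and the array through which *WRKY76* was kept.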

How the data were processed

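The authors deposited 1 linear intensity for each probe set, the MAS5 signal of Affymetrix Expression Console, with every array brought to a target of 100. No source used here gives the software versions. Of 57381 probe sets, 123 controls were left out, and 25045 whose geometric mean reached 20 were tested on the log2 scale without a pseudocount. Present calls were not used here. limma 3.58.1 (R 4.3.3) compared *crl1* with WT, with replicate pairs as a block and a mean-variance trend, as the study compared genotypes replicate by replicate. Deviations from the genotype means went together within pairs (correlations 0.390, 0.451 and 0.747). Across pairs, WT replicate 1 with *crl1* replicate 2 gave 0.232, and WT replicate 2 with *crl1* replicate 1 gave 0.060. Correlations of replicate 3 with replicates 1 and 2 of the other genotype were negative. The deviations within a genotype cancel out by construction, so the high value of pair 3 pushes these down. They add no evidence on the pairing. Pairs 1 and 2 were only partly set apart from each other. P-values were adjusted by Benjamini-Hochberg over all tested probe sets. The fit was also run on simulated data with normal noise of the variances it had fitted. Such noise meets its assumptions by construction, so the run does not show how far the real arrays meet them. No p was computed for replicate 3 against 1 and 2. Probe sets were paired with genes by a probe table (22436 with 1 gene, 95 with several, 34727 with none) and named by the RefSeq annotation. Where a gene had several probe sets the brightest was taken.

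The members and lists were chosen with earlier results of these data known. All genes kept by the signal rule were named. For the other lists, the brightest gene, that with the smallest p and that with the largest replicate 3 difference were eligible, and genes given for another reason were chosen after their values were seen. The alternatives were no block, no trend, other signal minimums, quantile normalization, a pseudocount of 16, median centring, each replicate left out, cross-hybridising probe sets left out, the mean over probe sets, other folds and each genotype alone. The number of arrays limits the precision. The p-values, standard errors and intervals of limma rest on the spread between these pooled samples. That spread is moderated towards that of other probe sets of like signal (prior degrees of freedom 7.33). They therefore do not give the spread of the pairs of a gene alone. Python 3.11.15, pandas 2.3.3, numpy 2.4.6 and matplotlib 3.10.9 were used for tables and figures.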

Additional observations from a re-analysis of the deposited data

How the results depend on the processing

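None of the 4 WRKY genes passed between *crl1* and WT in any of 12 alternatives. Over the whole table, a fit without the replicate block called 1 higher and 4 lower in *crl1*, a fit without the trend 0 and 0, and with a replicate left out 31 to 120 were higher and 88 to 215 lower. The direction of *WRKY71* turned without replicate 3 (-0.16, range with a replicate left out -0.16 to 0.35), and no other WRKY gene changed sign. The limma adjusted p ran from 0.718 to 1.000 for *WRKY9*, 0.239 to 1.000 for *WRKY51*, 0.644 to 1.000 for *WRKY71* and 0.0876 to 1.000 for *WRKY76*. A minimum of 50 leaves *WRKY76* out. Each of the 4 has 1 probe set above the minimum and none of a kind that may cross-hybridise, so averaging probe sets changed nothing. In replicate 3 the 931 probe sets called became 4132 without a signal minimum, 2979 at 1.5-fold, 10543 with no fold, and 1684 and 1685 in WT or *crl1* alone (840 to 1122 with a replicate left out). Of the WRKY genes, 1 was called in *crl1* alone (*WRKY71*) and 1 without replicate 1 (*WRKY76*, range with a replicate left out 0 to 1).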

Other observations

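The genes most like the other WRKY members, by the same measure over 6 arrays and among the same 74 named genes, were looked up after the values were seen. *WRKY51* was most like *PP2C68*, a protein phosphatase 2C (Pearson correlation 0.95), *GA20OX3*, a gibberellin 20-oxidase (0.93), and *LEA19*, a late embryogenesis abundant protein (0.90). The signal of *LEA19* was 124, 233 and 710 in WT, against 294, 90.8 and 624 in *crl1*, by replicate, highest in replicate 3 of each genotype. By its brighter probe set, *WRKY71* was most like *MFT2*, of the phosphatidylethanolamine-binding proteins (0.97), with 27.4, 16.5 and 29.1 in WT and 32.5, 16.3 and 131 in *crl1*. By these probe sets, replicate 3 of the mutant was the highest array for both genes, 1.67-fold above the next for *WRKY71*. The dimmer probe set of *WRKY71* had replicate 3 lowest in both genotypes. *WRKY76* was most like *DCD1*, a cysteine desulfhydrase (0.85), and *BIP1*, a chaperone of the endoplasmic reticulum (0.83), which were highest in *crl1* replicate 2 at 1425 and 2736, against at most 1297 and 2256 in the other arrays. *crl1* replicate 2 was the highest array for 20.9% of the tested probe sets. *WRKY76* passed the signal minimum only through that array, so nothing is read from its correlations.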
